A study of Arabidopsis thaliana with 15 samples.

Results

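Aliphatic glucosinolates are sulfur-rich defence compounds that Brassicaceae make from methionine. The data below describe 10 Arabidopsis thaliana genes of their synthesis, out of 73194 features in the RNA-seq table. The genes were listed by locus and function, with earlier results of these data known: MYB28 (AT5G61420), MYB29 (AT5G07690), MAM1 (AT5G23010), MAM3 (AT5G23020), CYP79F1 (AT1G16410), CYP79F2 (AT1G16400), CYP83A1 (AT4G13770), SOT17 (AT1G18590), SOT18 (AT1G74090) and FMO GS-OX1 (AT1G65860), shortened to GS-OX1 here. All 10 had a row in the table and all 10 passed the filter on low counts.

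RNA-seq was made from leaves of untreated plants at 3 weeks, with 3 libraries of Col-0, the wild-type accession, and 3 of prp4k3. The series' design text gives prp4k3 as amiR-PRP4K3, a line with an artificial microRNA, and the labels give neither its promoter nor how many lines or plants were used. Whether the 3 libraries of a genotype are separate plants or repeats of 1 pool is not stated, so each p-value reflects library-to-library spread, possibly technical, and no more. The se-2 samples were not analysed here.

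Synthesis runs in stages. Methionine is first lengthened by rounds of chain elongation in the chloroplast, the amino acid is then turned into the core glucosinolate by cytochromes P450, a conjugating and cleaving step, a glucosyltransferase and a sulfotransferase, and the side chain is finally modified, for example by S-oxygenation. The R2R3-MYB factors MYB28, MYB29 and MYB76 activate the genes of the pathway together with MYC2, MYC3 and MYC4, the bHLH factors of jasmonate signalling. In leaves the compounds are kept apart from myrosinases, the enzymes that break them down when tissue is damaged.

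The RNA-seq libraries held between 16041754 and 19344157 counts each, and 3 counts correspond to 0.131 to 0.222 CPM (the usual depth-normalised count, here scaled by TMM factors) per library. The genotypes differed in much of the transcriptome, so a call in any single gene was common. In edgeR's quasi-likelihood test 65.8% of 18609 tested features passed a Benjamini-Hochberg adjusted p of 0.05 and are referred to as called, 33.9% higher and 31.9% lower in prp4k3. Plastid-encoded genes held 48.0% to 50.8% of counts in Col-0 and 37.8% to 39.5% in prp4k3. The scaling changed the picture, and the part of the plastid share in that was not tested. Scaled to total counts instead of TMM factors, 76.9% were called, 67.1% higher and 9.81% lower, and the median log2 fold change of all tested features moved from 0.02 to 0.86. Both scales are therefore given for each of the 10 genes, and a change on either is relative to that scale. The labels do not pair the artificial microRNA with a locus. AT3G25840, known as PRP4KA, had 150, 143 and 126 counts in Col-0 and 147, 129 and 139 in prp4k3. AT1G13350 (PRP4KB) had 77 to 84 and 81 to 113 counts, and AT3G53640 (PRP4KC) had 0 in every library. AT3G25840 was called lower on the TMM scale only (log2 fold change -0.68 ± 0.13, against 0.16 with total counts). AT1G13350 was not called there (-0.41 ± 0.18, adjusted p = 0.0646) and was called higher with total counts (0.43 ± 0.17, adjusted p = 0.0413).

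The 10 genes moved apart from each other. CYP79F1, CYP79F2 and SOT17 were higher in prp4k3 on both scales, MYB28 was lower on the TMM scale, and the other 6 were not called there. Thus 3 of 10 were called higher and 1 lower, against 33.9% and 31.9% of all tested features, and the median log2 fold change of the 10 was 0.03, against 0.02 for all. In 4 of 10 the libraries of the genotypes did not overlap, against 70.5% of tested features. With total counts 7 were called higher and 0 lower (67.1% and 9.81% of features), the median was 0.87, and 7 of 10 did not overlap (78.9% of features). A change of scale moves all genes of a library together, so the order of the 10 genes by fold change was alike on both.

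**Figure D1:**
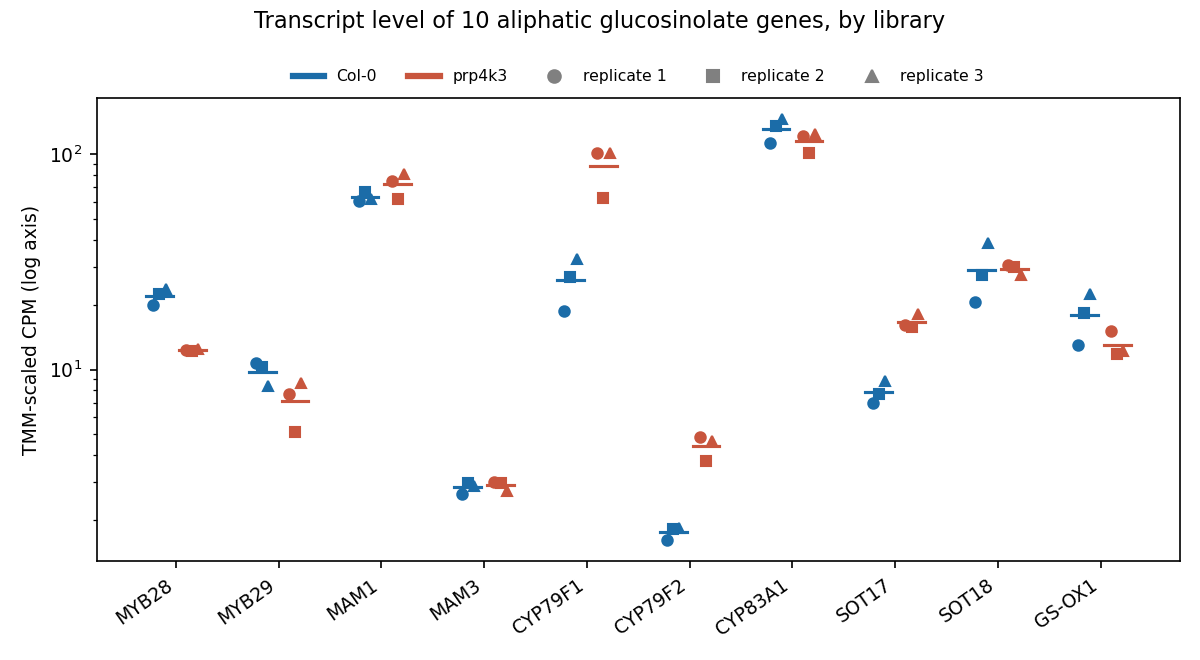
TMM-scaled CPM of the 10 genes on a log axis, with 1 point per library (symbols give the replicate) and a line at the mean of each genotype. Points of Col-0 and prp4k3 lie apart for MYB28, CYP79F1, CYP79F2 and SOT17 and overlap for the other 6 genes. Levels are not per length, so heights should be compared between genotypes and not between genes.

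MYB28, the main activator of the aliphatic branch, stood at 19.8, 22.5 and 23.6 CPM in Col-0 and at 12.4, 12.2 and 12.5 CPM in prp4k3. The prp4k3 libraries were all lower and nearly equal, and the genotypes did not overlap. MYB28 fell by 0.83 ± 0.11 on the log2 scale (adjusted p = 0.000127), from 21.98 ± 1.93 to 12.4 ± 0.141 CPM (SD, n = 3). With total counts the difference was 0.012 ± 0.11 (adjusted p = 0.928), with means of 16.4 and 16.5 CPM. The fall was thus seen under TMM scaling and not under the other, where the median of all features stood at 0.86.

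MYB29, which shares the control of the branch with MYB28 and answers to jasmonate, stood at 10.7, 10.2 and 8.37 CPM in Col-0 and at 7.68, 5.16 and 8.70 CPM in prp4k3. The genotypes overlapped, with the highest prp4k3 library above the lowest of Col-0. Its log2 fold change was -0.44 ± 0.20 (adjusted p = 0.072), and 0.40 ± 0.20 with total counts (adjusted p = 0.0904). The call depended on single libraries, since MYB29 passed without Col-0 replicate 3 (-0.55, adjusted p = 0.0483) or without prp4k3 replicate 3 (-0.61, adjusted p = 0.0311). It did not pass without any of the other 4, and without prp4k3 replicate 2 the value shrank to -0.27 (adjusted p = 0.155).

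The chain elongation genes did not pass on the TMM scale. MAM1 encodes a methylthioalkylmalate synthase that condenses the methionine-derived oxo acid with acetyl-CoA. It stood at 60.7, 66.7 and 61.7 CPM in Col-0 and at 74.4, 61.5 and 80.9 CPM in prp4k3. Of the prp4k3 libraries, replicate 2 lay within the Col-0 range and the others above it. The log2 fold change was 0.20 ± 0.12 (adjusted p = 0.181) and 1.04 ± 0.13 with total counts (adjusted p = 3.41e-05), and without prp4k3 replicate 2 MAM1 passed on the TMM scale (0.29, adjusted p = 0.028).

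MAM3, the neighbouring synthase with a wider range of chain lengths and listed as IMS2 in the reference table, had 36, 44 and 39 counts in Col-0 and 69, 64 and 60 in prp4k3. That made 2.66, 2.99 and 2.89 CPM against 3.01, 2.97 and 2.75 CPM, overlapping values. The log2 fold change was 0.03 ± 0.16 (adjusted p = 0.872), and 0.87 ± 0.17 with total counts (adjusted p = 0.000853). No protein-coding gene lies between MAM1 and MAM3 in the reference annotation, and reads that fit both would be counted in a way that is not given.

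The largest differences among the 10 genes were at the entry to core synthesis. CYP79F1, a cytochrome P450 that turns chain-elongated methionine into aldoximes, stood at 18.7, 26.9 and 32.7 CPM in Col-0 and at 100.8, 62.5 and 100.4 CPM in prp4k3. Every prp4k3 library was above every Col-0 library, although both genotypes varied, with Col-0 replicate 1 and prp4k3 replicate 2 the lowest. CYP79F1 rose by 1.75 ± 0.23 (adjusted p = 0.000127), or 3.37-fold, from 26.1 ± 7.03 to 87.9 ± 22.0 CPM. With total counts it rose by 2.60 ± 0.24 (adjusted p = 4.75e-06). On the TMM scale 1573 of 18609 features had a log2 fold change at least as large, CYP79F1 included.

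CYP79F2, the adjacent copy that acts on long-chain methionine derivatives, had far fewer reads: 22, 27 and 25 counts in Col-0 and 112, 81 and 102 in prp4k3. Its levels of 1.62, 1.83 and 1.85 CPM in Col-0 lay below the 4.89, 3.76 and 4.67 CPM of prp4k3. It rose by 1.32 ± 0.19 (adjusted p = 0.000184), and by 2.16 ± 0.19 with total counts (adjusted p = 3.35e-06). The CYP79F genes are related copies with no protein-coding gene between them in the reference annotation, and how the authors counted reads that fit both is not given.

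CYP83A1, which oxidises the aldoximes in the next step, had the most reads of the 10 genes and was not called. It stood at 113, 134 and 144 CPM in Col-0 and at 121, 101 and 123 CPM in prp4k3, with the genotypes overlapping. The log2 fold change was -0.18 ± 0.13 (adjusted p = 0.236), and 0.66 ± 0.13 with total counts (adjusted p = 0.000922).

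The sulfotransferases of the last core step went apart. SOT17 stood at 7.01, 7.74 and 8.89 CPM in Col-0 and at 16.1, 15.8 and 18.1 CPM in prp4k3, with every prp4k3 library above every Col-0 library. It rose by 1.08 ± 0.13 (adjusted p = 7.6e-05), or 2.11-fold, and by 1.92 ± 0.13 with total counts (adjusted p = 8.12e-07).

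SOT18 stood at 20.5, 27.4 and 38.5 CPM in Col-0, and at 30.4, 29.8 and 27.4 CPM in prp4k3. The Col-0 libraries were widely spread and enclosed all 3 of prp4k3. Its log2 fold change was 0.02 ± 0.20 (adjusted p = 0.936), and 0.86 ± 0.20 with total counts (adjusted p = 0.00232). The reference annotation places AT1G74088, with 205 counts over the 6 libraries, across part of SOT18.

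In side-chain modification GS-OX1, a flavin monooxygenase that S-oxygenates methylthioalkyl glucosinolates, stood at 12.99, 18.3 and 22.4 CPM in Col-0 and at 15.1, 11.8 and 12.2 CPM in prp4k3. The genotypes overlapped through Col-0 replicate 1. The log2 fold change was -0.46 ± 0.19 (adjusted p = 0.0573), and 0.39 ± 0.19 with total counts (adjusted p = 0.091). It passed as lower without Col-0 replicate 1 (-0.65, adjusted p = 0.00632) or without prp4k3 replicate 1 (-0.58, adjusted p = 0.0427). Without any of the other 4 libraries it was not called, and without Col-0 replicate 3 the value shrank to -0.28 (adjusted p = 0.209).

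**Figure D2:**
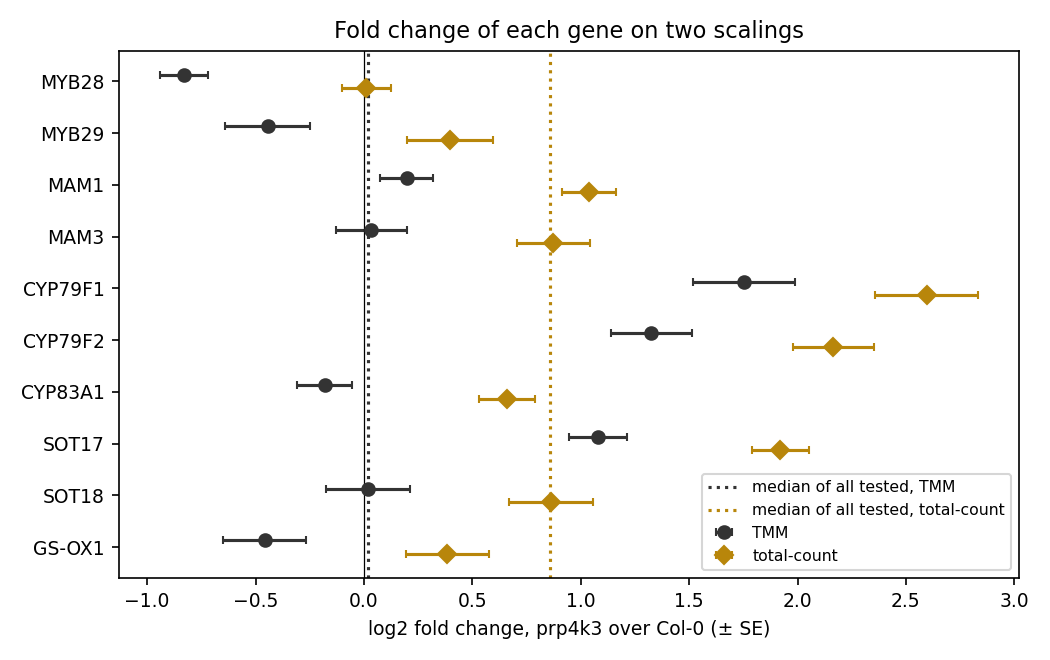
Log2 fold change of prp4k3 over Col-0 for each gene with its standard error, on the TMM scale (circles) and with total-count scaling (diamonds), and dotted lines at the median of all 18609 tested features (0.02 and 0.86). The diamonds repeat the circles shifted to the right, and CYP79F1, CYP79F2 and SOT17 lie right of 0 on both scales.

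The authors' deposited table gives values near the TMM scale. In the authors' deposited table the log2 fold change was -0.798 for MYB28, 1.786 for CYP79F1, 1.357 for CYP79F2 and 1.112 for SOT17. The other 6 genes had an adjusted p between 0.0607 (GS-OX1) and 0.834 (SOT18) in the authors' deposited table.

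The make-up of the 10 genes' counts does not depend on any scaling, but the shares sum to a whole, so a larger share of 1 gene lowers those of the others. CYP79F1 made up 6.98%, 8.44% and 9.46% of the summed counts in Col-0 and 26.1%, 20.4% and 25.7% in prp4k3. SOT17 went from 2.54% ± 0.101 to 4.65% ± 0.490 and CYP79F2 from 0.573% ± 0.0356 to 1.23% ± 0.0365 (SD, n = 3). The share of MYB28 was 7.11% ± 0.296 and 3.46% ± 0.457, and that of CYP83A1, which was not called lower on either scale, 42.0% ± 0.159 and 31.9% ± 0.826. MYB29 held 3.21% ± 0.789 and 1.97% ± 0.271, and GS-OX1 5.70% ± 0.811 and 3.63% ± 0.442. For these 7 genes the shares of the genotypes did not overlap. The shares of MAM1, MAM3 and SOT18 overlapped, and MAM1 held 20.5% ± 2.44 and 20.0% ± 0.700. As TMM-scaled levels, MYB29, CYP83A1 and GS-OX1 overlapped too, while 70.5% of all tested features did not overlap. The summed level was 267, 319 and 345 CPM in Col-0 and 386, 306 and 391 CPM in prp4k3, and as a share of all counts 0.0198% to 0.0254% against 0.0411% to 0.0521%. These shares are descriptions, with no test.

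**Figure D3:**
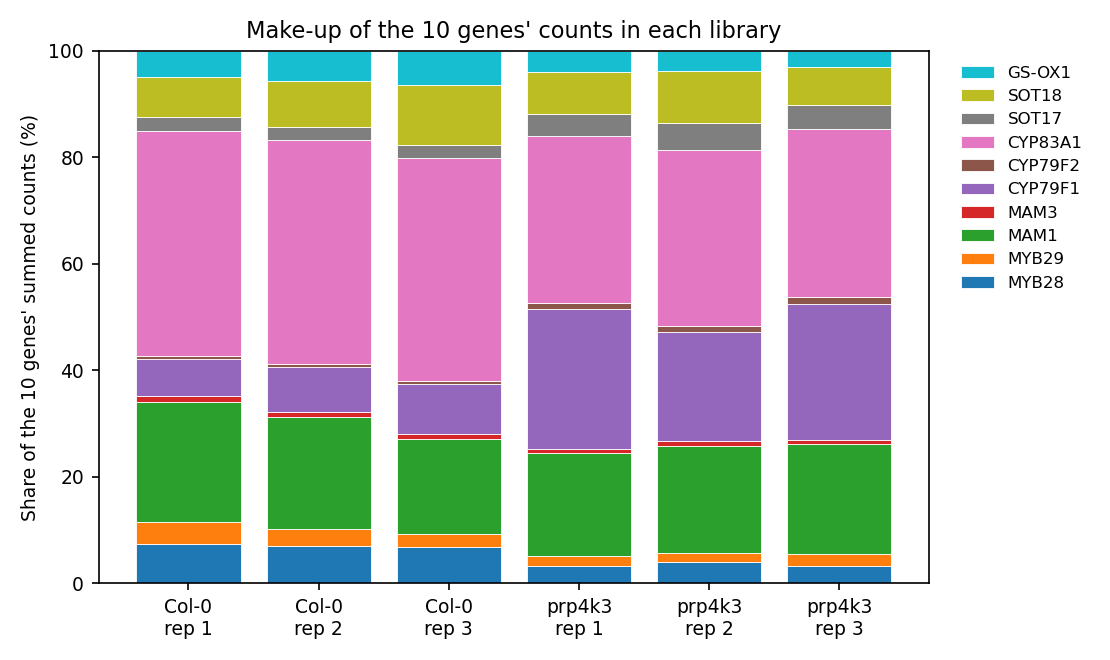
Share of each gene in the summed counts of the 10 genes, in percent, as 1 stacked bar per library. The CYP79F1 segment takes 6.98% to 9.46% of the Col-0 bars and 20.4% to 26.1% of the prp4k3 bars, and CYP83A1 is the largest segment in all 6.

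Ratios between paired genes were compared within each library, which also removes the scaling. With 3 libraries against 3 the two-sided exact permutation test cannot go below p = 0.1, so none of the 9 pairs could pass, and Benjamini-Hochberg adjusted values were 0.3 or more. The log2 ratio of SOT17 to SOT18 counts was -1.54, -1.82 and -2.11 in Col-0 and -0.92, -0.92 and -0.59 in prp4k3. That was a difference of 1.014 ± 0.20 without overlap (exact permutation p = 0.1, adjusted 0.3). The ratios of MYB28 to MYB29, MAM1 to MAM3 and CYP79F1 to CYP79F2 overlapped between the genotypes, with differences of -0.36 ± 0.28, 0.16 ± 0.15 and 0.46 ± 0.21 (exact permutation p from 0.2 to 0.4, adjusted p = 0.45 for each).

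Pairs across the aliphatic and indole branches, where tryptophan is the starting amino acid, went both ways. The log2 ratio of CYP83A1 to CYP83B1, its indole counterpart, was 0.58, 0.67 and 0.51 in Col-0 and -0.59, -0.52 and -0.48 in prp4k3. The difference was -1.12 ± 0.06, without overlap (exact permutation p = 0.1, adjusted 0.3). The log2 ratio of MYB28 to MYB34, an activator of the indole branch, had a mean of -0.54 in Col-0 and 0.76 in prp4k3, without overlap (difference 1.296 ± 0.19, exact permutation p = 0.1, adjusted 0.3). The ratio of CYP79F1 to CYP79B2, which makes the indole aldoxime, overlapped (difference -0.09 ± 0.33, exact permutation p = 0.8, adjusted 0.8), as did those of SOT17 to the indole sulfotransferase SOT16 (0.26 ± 0.24) and of MAM1 to IPMS1, a leucine synthesis relative (0.15 ± 0.15), both with exact permutation p = 0.4 and adjusted p = 0.45.

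**Figure D4:**
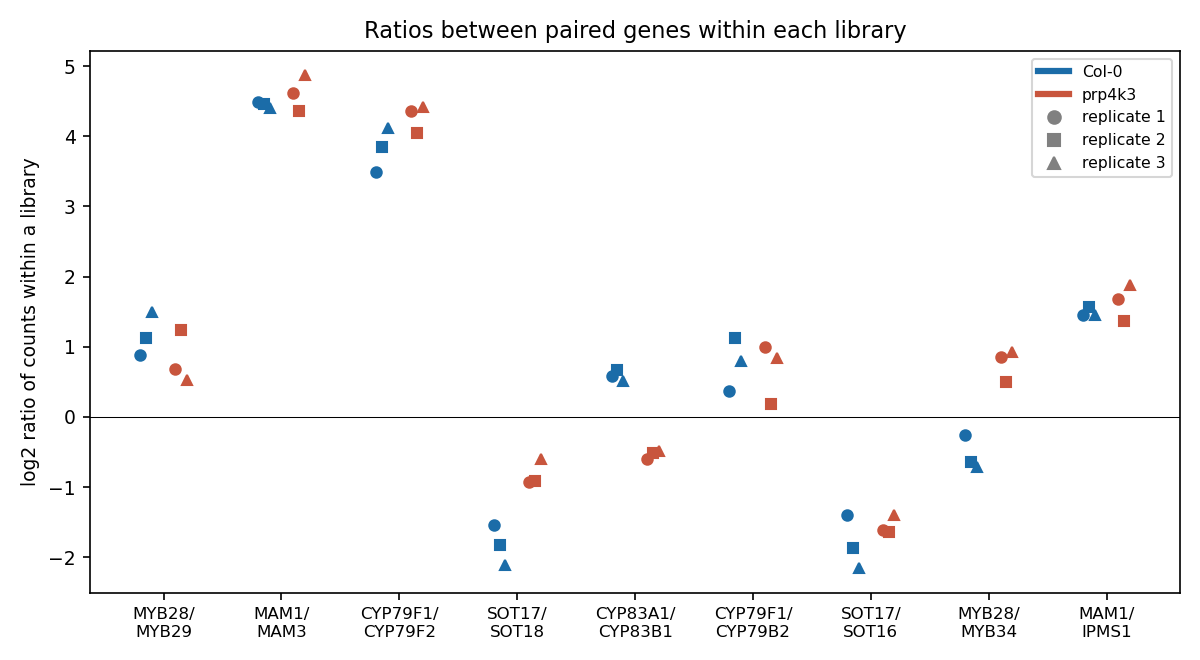
Log2 ratio of read counts between paired genes within each library (prior count 0.5), coloured by genotype, with a symbol per replicate. Libraries of Col-0 and prp4k3 lie apart for SOT17/SOT18, CYP83A1/CYP83B1 and MYB28/MYB34 and overlap for the other 6 pairs.

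Libraries of 1 genotype also differed from each other along the pathway. Col-0 replicate 1 had the lowest TMM-scaled level of its genotype in 9 of the 10 genes, against 39.4% of all tested features, and prp4k3 replicate 2 in 8 of the 10, against 38.6%. The chain elongation genes outside the 10 had their lowest levels in the same libraries in 6 of 7 and 7 of 7 genes. For 6 indole genes the numbers were 3 and 3. Genes of 1 pathway are not independent, and these counts were made after the values were seen.

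Other genes of the pathway were read from lists by role, with calls again to be set against 33.9% higher and 31.9% lower. Values are on the TMM scale unless total counts are named, and every gene named below as having risen was also called higher with total counts. Among regulators, 5 of 9 tested genes were higher and 2 lower, with a median of 0.44. MYC4 fell by 1.71 ± 0.21 (adjusted p = 7.93e-05), from 80.0 ± 15.97 to 24.5 ± 6.67 CPM, and it was also lower with total counts (-0.86). MYC2 and MYC3 were added after their values were seen. MYC2 fell by 0.58 ± 0.19 (adjusted p = 0.0233) and stood at 0.26 with total counts, not called. MYC3 was not called (-0.008 ± 0.12, adjusted p = 0.96) and was called higher with total counts (0.84 ± 0.12). SDI1 and SDI2, sulfur deficiency-induced repressors of the pathway, rose by 1.73 ± 0.25 and 1.35 ± 0.22, from 1.52 to 5.08 CPM and from 3.30 to 8.41 CPM. MYB76, the third MYB activator, had 2 to 4 counts in Col-0 and 5 to 12 in prp4k3, too few to test.

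In chain elongation 1 of 7 other genes was higher and 0 were lower (median 0.20), or 6 and 0 with total counts. The gene called was IPMDH1, an isopropylmalate dehydrogenase, which rose by 0.70 ± 0.18, from 20.9 ± 2.57 to 33.9 ± 8.18 CPM (adjusted p = 0.0072). The reference annotation places a gene with 1517 counts, AT5G14210, across part of it. Of 5 paralogs that serve leucine synthesis, 0 were higher and 1 lower (median -0.07), or 4 higher and 0 lower with total counts. The gene called, IPMS2, fell by 0.90 ± 0.12 (-0.06 with total counts, adjusted p = 0.662). IPMS1 had a log2 fold change of 0.04 ± 0.10 (adjusted p = 0.722), and was called higher with total counts (0.89 ± 0.11, adjusted p = 2.99e-05).

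Of 5 tested further genes of core synthesis, 1 was higher and 2 lower (median -0.18), or 3 and 0 with total counts. GSTF11 and GSTU20, glutathione S-transferases, fell by 0.90 ± 0.25 and 0.51 ± 0.18 (adjusted p = 0.0103 and 0.0326), and with total counts they stood at -0.06 and 0.34, neither called. GSTU20 lost its call without Col-0 replicate 2 (adjusted p = 0.0708), Col-0 replicate 3 (0.0887) or prp4k3 replicate 1 (0.0545). UGT74B1, a glucosyltransferase of both branches, rose by 0.46 ± 0.18 (adjusted p = 0.0495), a call lost when any library but Col-0 replicate 3 was left out (adjusted p from 0.0535 to 0.156), with upper-quartile factors (0.0514) or with a filter of 1 CPM in 3 libraries (0.0509).

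Of 5 tested side-chain genes besides GS-OX1, 3 were higher and 1 lower (median 0.54), or 4 and 0 with total counts. GS-OX2 and GS-OX5, S-oxygenases like GS-OX1, rose by 1.24 ± 0.30 and 0.56 ± 0.14 (adjusted p = 0.00483 and 0.00645). Their mean levels were 1.73 and 14.0 CPM in Col-0 and 4.12 and 20.6 CPM in prp4k3. AOP1, a dioxygenase gene next to the alkenyl- and hydroxyalkyl-forming AOP genes, fell by 0.71 ± 0.18 (0.13 with total counts, adjusted p = 0.514), and AT4G03080 with 5113 counts overlaps it in the annotation. AOP2 had no row in the RNA-seq table and was not tested, and AOP3 had 1 count in all.

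Sulfate donor supply had 0 higher and 1 lower of 5 genes (median -0.13), or 5 higher and 0 lower with total counts. APS1, an ATP sulfurylase, fell by 0.39 ± 0.11 on the TMM scale and turned to 0.45 with total counts, called on both. Transport had 2 higher and 0 lower of 3. GTR2, an importer that loads glucosinolates into the phloem, rose by 1.001 ± 0.11 (adjusted p = 4.79e-05), from 38.4 ± 3.75 to 76.9 ± 5.24 CPM, and GTR3 by 0.68 ± 0.17. Genes overlapping GTR2 and GTR3 in the annotation held 6189 and 2872 counts.

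Of 9 tested breakdown genes, 3 were higher and 4 lower (median -0.28), or 7 higher and 0 lower with total counts. BGLU30, a beta-glucosidase induced by darkness and sulfur shortage, rose by 5.24 ± 0.36, from 0.921 ± 0.736 to 34.8 ± 8.94 CPM (adjusted p = 2.46e-06). NSP5, a nitrile-specifier protein, rose by 1.23 ± 0.13 and PEN2, a myrosinase of immunity, by 0.54 ± 0.11. The 4 called lower were ESP (-0.84 ± 0.20), TGG1 (-0.35 ± 0.09), TGG2 (-0.33 ± 0.11) and NSP1 (-0.28 ± 0.10), added after their values were seen. TGG1 had the highest level of the list, with means of 1099 CPM in Col-0 and 861 CPM in prp4k3. With total counts TGG1, TGG2 and NSP1 were called higher (0.49, 0.51 and 0.56), and ESP stood at 0.006, not called. Of 6 tested indole genes 3 were higher and 2 lower (median 0.59), or 4 and 1 with total counts. CYP79B2 rose by 1.83 ± 0.15, CYP83B1 by 0.94 ± 0.14 and SOT16 by 0.75 ± 0.22, and MYB34 fell by 2.15 ± 0.20 (-1.304 with total counts). CYP79B3, which catalyses the same step as CYP79B2 and was added after its values were seen, fell by 0.96 ± 0.19 (adjusted p = 0.00146), and stood at -0.12 with total counts (adjusted p = 0.574).

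**Figure D5:**
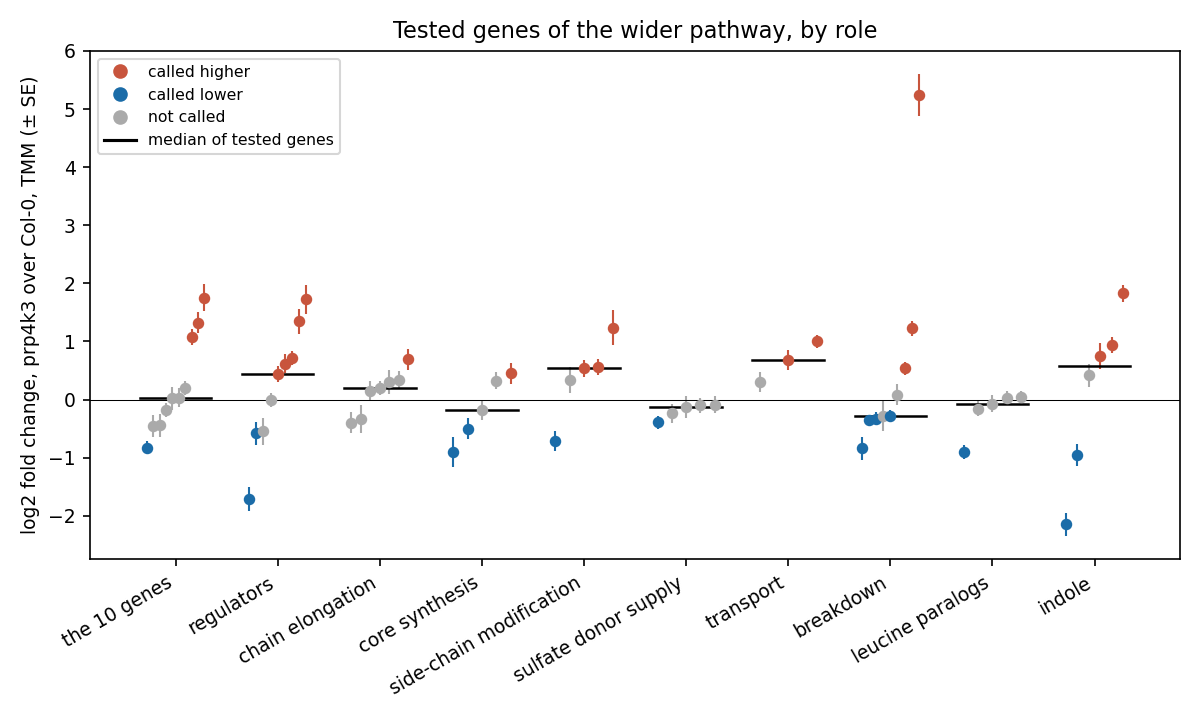
Log2 fold change (TMM scale, prp4k3 over Col-0) with its standard error for each tested gene of the 10 and of the lists by role, with red for called higher, blue for called lower, grey for not called, and a line at the median. The 10 genes have a median of 0.03, BGLU30 in the breakdown list is the highest point and MYB34 in the indole list the lowest.

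Markers of leaf cell types moved as well. Mesophyll markers were high in all libraries, as in leaf tissue, and their summed level ranged from 37602 to 40625 CPM in Col-0 and from 11832 to 12432 CPM in prp4k3, with 3 of 3 lower on both scales. Phloem markers summed to 147 to 159 and 197 to 219 CPM (1 of 4 higher, 1 lower, or 3 and 0 with total counts). On the TMM scale AHA3 was the one called higher, with means of 35.7 CPM in Col-0 and 101 CPM in prp4k3. SWEET11 was called lower there (76.9 and 56.6 CPM), and SUC2 and SWEET12 were not called. Epidermis markers summed to 301 to 330 and 211 to 221 CPM (0 of 3 higher, 3 lower, but 2 higher and 0 lower with total counts). Guard cell markers summed to 19.0 to 21.6 and 17.1 to 21.7 CPM (1 of 4 higher, 1 lower, or 3 and 0 with total counts). Trichome markers summed to 7.67 to 12.1 and 5.24 to 6.74 CPM (0 of 3 higher, 1 lower, or 1 and 0 with total counts). Root markers summed to 28.6 to 43.7 and 18.7 to 27.8 CPM (1 of 2 tested lower, or 0 with total counts). Nearly all of that came from SCR and SHR, with means of 20.9 and 15.3 CPM in Col-0. The root hair gene COBL9 had 0 to 2 counts per library, and whether the sum reflects root tissue was not tested. Flower markers summed to 0.443 to 0.882 and 1.49 to 7.16 CPM. Of the 4 only AP1 was tested, with 0, 2 and 1 counts in Col-0 and 42, 11 and 25 in prp4k3. It was called higher on both scales (3.90 ± 0.79, and 4.70 ± 0.74 with total counts). Senescence markers summed to 2.31 to 3.39 and 86.5 to 120 CPM (2 of 2 higher). Most of that was SAG13, with means of 2.73 CPM in Col-0 and 104 CPM in prp4k3. SAG12 had few counts, 1, 9 and 1 in Col-0 and 38, 86 and 16 in prp4k3. The part of these markers' cell types in the results on the 10 genes was not tested. In whole leaves fewer cells of a type and less RNA per cell cannot be told apart.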

How the data were processed

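The members and the gene lists were chosen with earlier results of these data known. Per the file headers, the authors deposited read counts per feature for 6 RNA-seq and 6 small RNA libraries. The authors' other columns are whole-number normalised values (treated as a score, not used), the fold as a linear ratio, its log2, and raw and adjusted p-values of their comparison. TopHat2, SAMtools, HTSeq and edgeR are named in the submitters' processing notes. For versions, genome build, strand setting and reads that fit several genes, the answer is not given in the sources used here. Overlapping genes and near-identical paralogs are therefore uncertain, and no coordinates are printed.

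The deposited counts went into edgeR 4.0.16 under R 4.3.3 (filterByExpr, TMM factors, quasi-likelihood F-test of genotype, Benjamini-Hochberg over 18609 features, called at an adjusted p under 0.05). The pipeline was also run on simulated counts with few changed features and no shift in scaling between genotypes. That run differs from these data in both respects and does not bear on the choice of scale. A standard error is the absolute log2 fold change over the square root of F, and for ratios it comes from the 3 and 3 values. Floors of 3 counts cover counting error only. Library pairs of 1 genotype differed by more than sampling noise (chi-square per degree of freedom from 7.27 to 17.8). Symbols and gene order come from the reference table of assembly TAIR10.1, which held all 98 list genes, 88 of them under the name used here. Named genes were the 10 members, up to 3 called genes of each list by adjusted p, and the partners in the ratios. Genes given as added after their values were seen fall outside this rule. Alternatives were RLE, upper-quartile and total-count scaling, removal of organelle and rRNA genes, DESeq2 1.42.0, the likelihood ratio test, limma-voom (limma 3.58.1), other filters, a replicate block, and each library left out.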

Additional observations from a re-analysis of the deposited data

How the results depend on the processing

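The calls on CYP79F1, CYP79F2 and SOT17 held in all 16 alternatives, and that on MYB28 in 15, with log2 fold changes outside total-count scaling of 1.55 to 1.94, 1.24 to 1.42, 0.99 to 1.17 and -0.91 to -0.78. Members called higher numbered 7 and lower 0 with total counts. The number lower was 2 with upper-quartile factors, the likelihood ratio test or no filter, GS-OX1 being added each time, and 1 to 2 with a library left out. Total counts gave 12490 features higher and 1825 lower, and turned MYB28 (0.012), MYB29 (0.40), CYP83A1 (0.66), GS-OX1 (0.39), GSTU20 (0.34), AOP1 (0.13) and APS1 (0.45) above 0. The log2 ratio of the summed level, 0.22 on the TMM scale, was 1.06 there. With a library left out MAM3 ranged from -0.022 to 0.068, SOT18 from -0.18 to 0.27 and the CYP79F1 to CYP79B2 difference from -0.28 to 0.15, each crossing 0; the cause was not tested. A prior count of 2 turned no ratio.

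With the replicate number as a block (replicate block) the members' calls were 3 higher and 1 lower, as without it. The deviations of same-numbered libraries from the genotype means had correlations of -0.05, 0.06 and -0.05. Differently numbered pairs ranged from -0.15 to 0.17. The labels give only the number, and whether same-numbered libraries shared a batch was not tested. For miR826 only the removal of the filter gave a value, because the filter had removed it under the other settings. Of the 10 genes, MAM3 and CYP79F2 had the fewest counts, 22 to 112 per library.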

Other observations

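SUR1, the C-S lyase shared by the aliphatic and indole branches, had 0 counts in every library. The reference annotation places 0 genes across it, and how the authors treated reads that fit several features is not given. Whether the 0 is a transcript level or a matter of counting was not tested.

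miR826 is known to target AOP2 in Arabidopsis. In the small RNA table ath-miR826a had 1, 0 and 1 counts in Col-0 and 4, 0 and 2 in prp4k3. With the libraries of each genotype pooled, the counts were 2 in Col-0 and 6 in prp4k3. Divided by the total miRNA counts, which were smaller in prp4k3, the ratio was 7.06 (exact 95% counting interval 1.26 to 71.5). That interval leaves out the spread between libraries. Part of the ratio thus comes from the unequal totals, and what lay behind the totals was not tested. The filter on low counts removed ath-miR826a, and without a filter the adjusted p of edgeR's quasi-likelihood test was 0.129. For ath-miR826b, 1 count was found in prp4k3 and 0 in Col-0.

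The genes whose level over the 6 libraries was most like that of MYB28 were AT1G57770, AT4G24780, PHT4;1, PSB28 and AT4G12830, with Pearson's r from 0.9988 to 0.9994 on log2(CPM + 0.5). The points share the genotype difference, and 2068 of 11629 genes with a mean of at least 5 CPM reached 0.95.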
